A study of Homo sapiens with 8 samples.

Results

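Sterol synthesis genes were followed across 8 arrays of the human T-cell leukaemia line CCRF-CEM, which was established from an acute lymphoblastic leukaemia. The set consists of 8 genes chosen by symbol, HMGCS1, IDI1, FDFT1, SQLE, LSS, MSMO1, DHCR7 and INSIG1. Of these, 7 had a probe set under their symbol in the platform annotation, 1 probe set each, out of 17687 genes with a probe set and 21448 probe sets in all, and FDFT1 was not analysed here. There were 4 untreated arrays and 4 arrays from cells pretreated for 1 h with 1 µM OICR-9429, a small molecule that occupies the pocket of WDR5 used by MLL-family histone methyltransferases. All cells were grown in medium with serum, and both groups were then held for 1 h in a gel of bovine type I collagen at 1.7 mg/mL before RNA was taken. The labels call the controls untreated, mention no solvent, and number the biological replicates 1 to 4 in each group without saying whether a number marks a passage or a day. P-values therefore measure only the spread between these samples. In tests of the numbers, p-values and SEs rest on the variation of the treatment difference between numbers, not on the spread of separate cultures.

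Cells build cholesterol from acetyl-CoA through mevalonate, farnesyl diphosphate, squalene and lanosterol, in the cytosol and the endoplasmic reticulum. When sterol in the endoplasmic reticulum is low, SCAP carries the transcription factor SREBP2 to the Golgi, where proteases release its active part, which then binds sterol regulatory elements in the genes of nearly every enzyme of the route. INSIG1 holds SCAP in the endoplasmic reticulum when sterol is plentiful, and its own gene is an SREBP target, which closes a feedback loop. Proliferating lymphocytes and leukaemia cells make sterol for new membrane.

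The stretches upstream of 4 of the genes are shown because all 7 measured genes lay above the other replicate numbers at number 3, although they differed in direction at numbers 2 and 4. RefSeq promoter windows (GRCh38.p14) were found for 6 of the genes, and the 250 bases before each annotated start were searched on both strands. The motifs were CCAAT, the core bound by NF-Y, a usual partner of SREBP, then GGGCGG, bound by SP1, and TCACNCCAC, a strict form of the sterol regulatory element. The windows printed are HMGCS1 at chr5:43313413-43313662 (minus strand), MSMO1 at chr4:165327419-165327668 (plus strand), INSIG1 at chr7:155297628-155297877 (plus strand) and LSS at chr21:46228775-46229024 (minus strand). For HMGCS1, which has several annotated starts, the outermost is shown. Each reads 5′ to 3′ along the gene and ends at the base before the start, with CCAAT or its reverse complement in capitals.
HMGCS1: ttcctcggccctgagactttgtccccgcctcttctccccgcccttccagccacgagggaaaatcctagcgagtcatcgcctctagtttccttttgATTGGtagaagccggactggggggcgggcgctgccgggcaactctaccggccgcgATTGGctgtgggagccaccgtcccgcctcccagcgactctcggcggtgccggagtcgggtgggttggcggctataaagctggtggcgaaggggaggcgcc
MSMO1: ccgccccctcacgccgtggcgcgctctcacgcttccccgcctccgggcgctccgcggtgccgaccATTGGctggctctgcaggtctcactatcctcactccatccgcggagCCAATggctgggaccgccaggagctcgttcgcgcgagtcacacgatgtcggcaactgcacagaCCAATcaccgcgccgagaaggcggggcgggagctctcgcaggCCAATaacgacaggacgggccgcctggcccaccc
INSIG1: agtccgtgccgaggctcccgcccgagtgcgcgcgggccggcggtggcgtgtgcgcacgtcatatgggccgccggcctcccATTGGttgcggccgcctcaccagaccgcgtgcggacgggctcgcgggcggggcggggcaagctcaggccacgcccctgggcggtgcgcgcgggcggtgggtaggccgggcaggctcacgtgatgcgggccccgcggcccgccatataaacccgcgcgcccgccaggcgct
LSS: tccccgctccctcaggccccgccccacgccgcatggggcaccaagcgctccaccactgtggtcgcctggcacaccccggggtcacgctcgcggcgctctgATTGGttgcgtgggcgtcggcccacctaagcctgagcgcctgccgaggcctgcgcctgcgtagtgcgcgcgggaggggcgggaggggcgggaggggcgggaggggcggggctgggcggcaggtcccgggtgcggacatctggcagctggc
CCAAT occurred in 7 of the 10 windows of these 6 genes and in at least 1 window of 6 of 6, against 32.0% of all 35116 windows and 37.0% of 27305 genes. GGGCGG occurred in 9 of the 10 windows, against 42.6% of all windows. The strict TCACNCCAC was in 0 of the 10 windows and in 0.883% of all windows, which says only that those letters are not in these stretches. In the printed windows the only overlap between matches was that of neighbouring GGGCGG copies upstream of INSIG1. MSMO1 had 4 CCAAT matches, HMGCS1 had 2, and INSIG1 and LSS had 1 each.

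The values are log2 expression values deposited after RMA, so a difference of 1 is a doubling. Array medians lay between 6.38 and 6.46, and the number of arrays limits the precision. The 15 measured T-lineage markers had a mean level of 8.97 to 9.44 per array, with CD3E on average at 11.82 and LCK at 10.91. The myeloid, B-lineage, erythroid and megakaryocyte, and fibroblast and epithelial lists had means between 4.82 and 6.37. Single genes of the lists overlapped: the T-lineage CD2, CD1B, CD1A and BCL11B averaged 6.50, 6.69, 6.78 and 7.75, while the B-lineage CD79A averaged 9.42, COL1A2 8.11 and KRT8 8.01. Probe sets differ in affinity and signal over background is not known, so levels of different probe sets, here and in the next sentence, are only a rough description. The means of the 7 sterol genes, 8.96 to 11.18, all lay above those of at least 83.9% of probe sets.

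The sterol genes varied mainly with replicate number and little with OICR-9429. Both arrays of number 3 together gave the highest mean for 7 of 7 genes, whereas 11.1% of all probe sets, and 14.4% of the 3092 probe sets at the level of these genes, were highest at that number. In limma's joint test of the 4 numbers, all 7 passed (adjusted p 0.000412 to 0.0123), a test passed by 50.3% of all probe sets and 76.3% of those at the same level, so passing it says little about these genes. Without number 4, 2979 probe sets passed in place of 10791. In these bulk samples, fewer cells with a transcript and less of it per cell cannot be told apart. Their spread over the numbers was 3.22 to 6.52 times the largest difference between the treated and untreated array of any one number. The range over numbers exceeded that largest difference for 7 of 7 genes and for 72.1% of all probe sets.

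**Figure D1:**
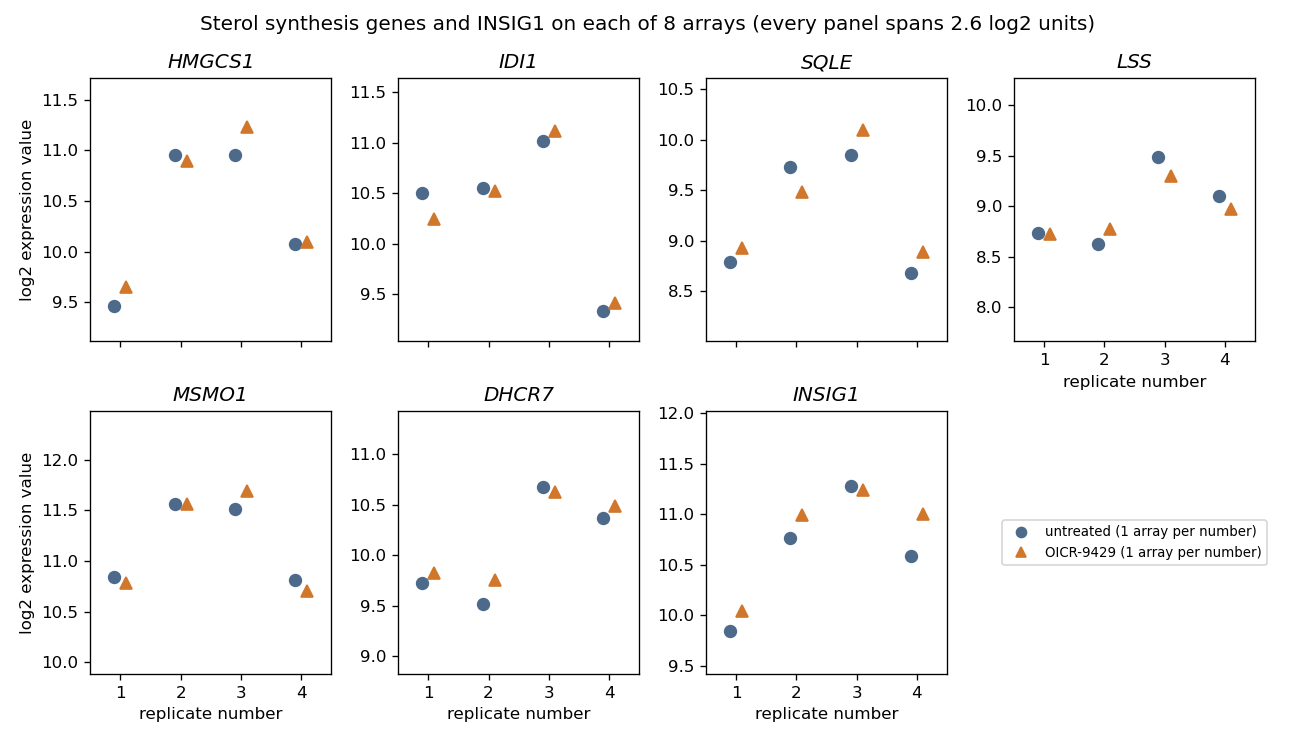
Log2 expression value (vertical axis) of each gene on each array, by replicate number (horizontal axis), with circles for untreated and triangles for OICR-9429 arrays. Every panel spans the same number of log2 units; the circle and triangle of a number lie close together, and number 3 is highest on average in 7 of 7 panels.

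HMGCS1 encodes HMG-CoA synthase, which makes the substrate of the step that limits sterol synthesis. In untreated cells it measured 9.46, 10.95, 10.95 and 10.07 for numbers 1 to 4, and with OICR-9429 9.65, 10.90, 11.23 and 10.09. Numbers 2 and 3 were high and number 1 low in both groups, and the treated and untreated ranges overlapped. Against the mean of the other numbers, number 1 was lower on the log2 scale, at -1.14 ± 0.12 (SE; limma, adjusted p = 0.00176), a 2.21-fold difference, and number 3 higher by 0.90 ± 0.12 (adjusted p = 0.0151). Without number 1 the latter was 0.59 (limma, adjusted p = 0.05004). The arrays of numbers 2 and 3 overlapped.

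IDI1 encodes isopentenyl diphosphate isomerase, which supplies the second of the 5-carbon building blocks. Its untreated values were 10.50, 10.55, 11.02 and 9.33 for numbers 1 to 4, and its treated values 10.24, 10.52, 11.11 and 9.41. Number 4 was the lowest in both groups and number 3 the highest. The gene had the widest range over numbers of the 7, 1.70 on the log2 scale or 3.24-fold. Number 4 was lower than the others by a log2 difference of -1.29 ± 0.12 (SE; limma, adjusted p = 0.000106), and number 3 higher by 0.97 ± 0.12 (adjusted p = 0.0131), or by 0.61 without number 4 (limma, adjusted p = 0.0913). No neighbouring numbers in this order overlapped, although number 1 lay 0.05 ± 0.12 (SE) from the mean of the others.

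SQLE encodes squalene epoxidase, which adds the first oxygen to squalene and is a second point of control. Untreated arrays of numbers 1 to 4 read 8.79, 9.73, 9.85 and 8.68, and treated arrays 8.93, 9.48, 10.09 and 8.89. Numbers 2 and 3 were high and numbers 1 and 4 low, and the arrays of 1 and 4 overlapped. Number 3 was higher by 0.89 ± 0.13 (SE; limma, adjusted p = 0.0251), and numbers 1 and 4 were lower by log2 differences of -0.59 ± 0.13 and -0.69 ± 0.13 (adjusted p = 0.0224 and 0.00306). Without number 4, number 3 stood at 0.74 (limma, adjusted p = 0.0703), and without number 3, number 1 stood at -0.335 (limma, adjusted p = 0.163).

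LSS encodes lanosterol synthase, which folds epoxidised squalene into the first sterol. It measured 8.73, 8.63, 9.49 and 9.10 in untreated and 8.72, 8.77, 9.30 and 8.97 in treated cells for numbers 1 to 4. Numbers 3 and 4 were high, and numbers 1 and 2 low and overlapping. LSS had the narrowest range of the 7 genes, 0.70 (1.62-fold), and no single number passed against the others, number 3 standing at 0.58 ± 0.12 (SE; limma, adjusted p = 0.0595). With numbers left out in turn, number 3 passed without number 2 (0.515, adjusted p = 0.0375), number 1 without number 2 (-0.49, adjusted p = 0.0272) and number 2 without number 1 (-0.515, adjusted p = 0.0296).

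MSMO1 encodes the C4-methylsterol oxidase that starts the removal of methyl groups from lanosterol derivatives. Its values for numbers 1 to 4 were 10.84, 11.56, 11.51 and 10.81 without and 10.78, 11.56, 11.69 and 10.70 with OICR-9429. Numbers 2 and 3 were high and overlapped each other, as did the low numbers 1 and 4. Number 4 was lower than the rest by a log2 difference of -0.57 ± 0.12 (SE; limma, adjusted p = 0.004) and number 2 higher by 0.51 ± 0.12 (adjusted p = 0.0145). Number 2 did not pass without number 1 (limma, adjusted p = 0.0664) or number 4 (limma, adjusted p = 0.0962). Number 3, at 0.56 ± 0.12, had adjusted p = 0.0602, and 0.0161 without number 2 (limma).

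DHCR7 encodes 7-dehydrocholesterol reductase, which makes cholesterol in the last step of one branch. It read 9.73, 9.52, 10.68 and 10.37 in untreated and 9.83, 9.76, 10.63 and 10.49 in treated cells for numbers 1 to 4. Numbers 3 and 4 were high, and numbers 1 and 2 low and overlapping. Number 4 was higher by 0.41 ± 0.11 (SE; limma, adjusted p = 0.0179), unlike HMGCS1, IDI1, SQLE and MSMO1, which were lower there. Number 4 did not pass without number 1 (0.28, limma, adjusted p = 0.114) or number 2 (0.21, limma, adjusted p = 0.18). Number 2 was lower than the rest by a log2 difference of -0.65 ± 0.11 (adjusted p = 0.00528) and number 3 higher by 0.71 ± 0.11 (adjusted p = 0.0329).

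INSIG1 encodes the retention protein that blocks SREBP processing. Its untreated values were 9.84, 10.76, 11.28 and 10.59 for numbers 1 to 4, and its treated values 10.04, 10.99, 11.24 and 11.0. Number 1 was the lowest array of each group, number 3 the highest, and numbers 2 and 4 overlapped. Number 1 was lower than the rest by a log2 difference of -1.04 ± 0.12 (SE; limma, adjusted p = 0.00286), a 2.05-fold difference, and number 3 higher by 0.72 ± 0.12 (adjusted p = 0.0395). Number 3 was at 0.425 without number 1 (limma, adjusted p = 0.118) and at 0.62 with cyclic loess normalization (limma, adjusted p = 0.0564).

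The agreement between the genes was therefore close at number 3 and partial elsewhere. On the untreated array of number 3, 7 of 7 genes lay above their own mean, by 0.33 to 0.69, and on the treated array by 0.34 to 0.82. The genes were chosen with earlier results of these data known, so counts of genes passing at a number are no independent test of agreement. At number 3, 5 of 7 passed as higher, where 1.18% of all probe sets and 1.65% of those at the same level did. This count depends on the variance model: with trended and robust variance 7 of 7 genes and 7.9% of probe sets passed, and without number 1 or number 4 it was 3 of 7, against 5.95% and 0.681% of probe sets. Without number 2 it was 7 of 7, against 9.58%. The difference at number 3 was above 0 for all 7 genes with all arrays and in each of the 8 alternatives that kept number 3, from 0.42 to 1.27.

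Number 1 was the low side for 5 of 7 genes, HMGCS1, SQLE, MSMO1, DHCR7 and INSIG1, where 6.14% of all probe sets passed as lower. Without number 3, 2 of 7 passed there. MSMO1 then had adjusted p = 0.109 and DHCR7 0.218, and without number 2 MSMO1 had 0.0734 and without number 4 DHCR7 0.108 (limma). At number 4 HMGCS1, IDI1, SQLE and MSMO1 were lower (4 of 7, against 25.5% of probe sets, and 48% at the same level). DHCR7 was higher (1 of 7, against 26.3%, and 21.1% at the same level), and LSS and INSIG1 did not pass. With such shares, the counts at number 4 say little about these genes. HMGCS1 stood at -0.24 there without number 2 and at -0.16 without number 3 (limma, adjusted p = 0.145 and 0.372), and 0 of 7 were higher without number 1 or number 2. At number 2, HMGCS1 and MSMO1 were higher and DHCR7 lower. In those directions 15.4% and 11.6% of all probe sets passed, and 26.2% and 22.4% of those at the same level. Passing at number 2 therefore says little about these genes. The higher count of 2 became 0 without number 1, 5 without number 3 and 1 without number 4, and the lower count of 1 became 2 without number 1. In the order of their number means, LSS and DHCR7 gave 3, 4, 1, 2, while SQLE, IDI1 and MSMO1 gave 3, 2, 1, 4, and HMGCS1 and INSIG1 gave 3, 2, 4, 1. These groupings were read from the values and have no test.

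**Figure D2:**
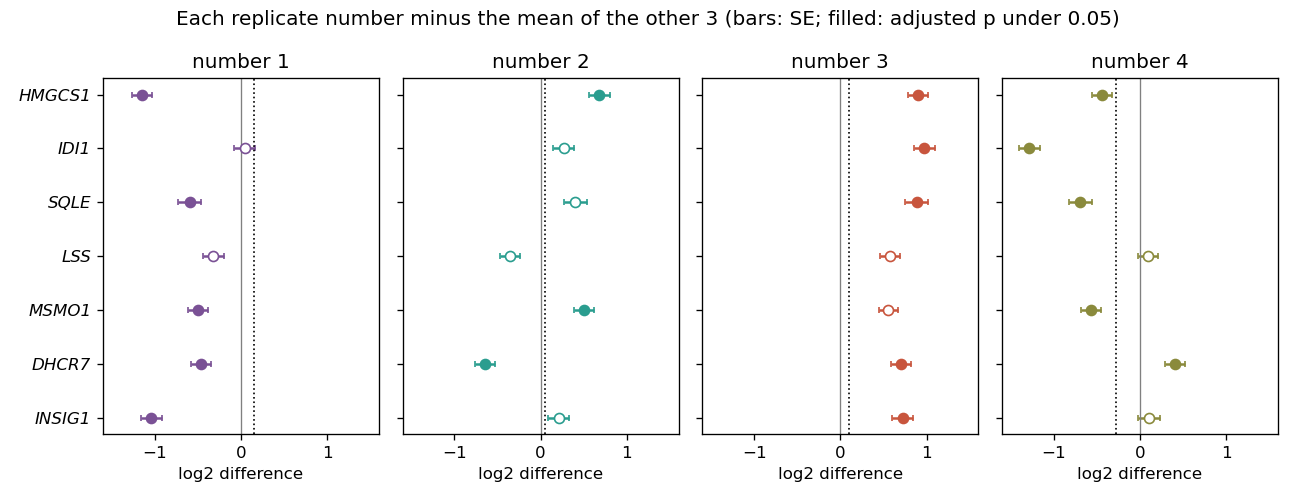
Log2 difference between each replicate number and the mean of the other numbers (horizontal axes, SE bars), per gene, with filled symbols at adjusted p under 0.05 in limma; the dotted line is the median of probe sets at the same level. At number 3 all 7 genes lie to the right, between 0.56 and 0.97, and at number 4 they fall on both sides.

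Other features of the arrays moved with number as well, and their part in the sterol values was not tested. Across probe sets the difference at a number correlated with mean level at 0.233, 0.0348, 0.222 and -0.232 for numbers 1 to 4, and probe sets at the level of the sterol genes had medians of 0.15, 0.051, 0.11 and -0.28. With cyclic loess normalization, which removes such trends, the median of the 7 genes at number 3 was 0.62 against 0.72, and 4 of 7 passed. At number 4 the difference of HMGCS1 was then -0.20 (limma, adjusted p = 0.205), and with quantile normalization -0.30 (adjusted p = 0.0692). Of 15 T-lineage markers 4 were higher at number 3, CD1A, CD1B and CD1E by 1.83 to 2.21 and CD2 by 0.87. Of the other marker lists, 0 of 31 genes passed as higher there and 1, the myeloid CD68, as lower (-0.72).

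OICR-9429 was not followed by a difference in the sterol genes that passed the test. With limma, 0 of 7 genes and 0 of 21448 probe sets (0%) had an adjusted p below 0.05, and 0 of 7 had an unadjusted p under 0.05, as 0.49% of probe sets did. With the replicate number as a block, 0 of 7 and 0 of 21448 passed again, and 5.55% of probe sets but 0 of 7 sterol genes had an unadjusted p under 0.05. The treated and untreated values overlapped for 7 of 7 genes, and 0.737% of all probe sets did not overlap.

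INSIG1 had the largest difference of the 7. The untreated mean was 10.62 ± 0.60 (SD, n = 4) and the treated mean 10.82 ± 0.53 (SD, n = 4), which differ by 0.20 ± 0.34 on the log2 scale (SE; limma, adjusted p = 1). Within numbers 1 to 4 it stood at 0.20, 0.23, -0.04 and 0.41, higher in 3 of 4. With the replicate block its SE was 0.11, and its 95% interval ran from -0.048 to 0.45. The unadjusted p in that fit was 0.101 (limma). Its adjusted p of 0.841 was shared with many probe sets, among them those of ABCA1, OSBP and SC5D, and no probe set had a smaller one.

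The other genes lay closer to 0. Their SEs given here are from the fit without the replicate block. With the block these SEs ran from 0.099 (DHCR7) to 0.115 (SQLE). HMGCS1 differed by 0.11 ± 0.43 (SE), with 0.19, -0.05, 0.28 and 0.02 within numbers 1 to 4. DHCR7 differed by 0.10 ± 0.31 (SE), with 0.10, 0.24, -0.05 and 0.12. SQLE stood at 0.085 ± 0.36 (SE), where number 2 alone was below 0 (0.14, -0.25, 0.24 and 0.21). IDI1 was at -0.03 ± 0.42 (SE), with 2 numbers on each side of 0 (-0.26, -0.03, 0.09 and 0.08). LSS was at -0.048 ± 0.23 (SE), with number 2 alone above 0 (-0.01, 0.14, -0.19 and -0.13). MSMO1 was at 0.0025 ± 0.29 (SE), at -0.06, 0.00, 0.18 and -0.11 within numbers. Of the 28 differences within a number, 16 were above 0, 11 below and 1 at 0, and they ran from -0.26 to 0.41.

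The median difference of the 7 genes was 0.085, where the median over all probe sets was 0.005 and that of probe sets at the same level 0.028. Without the treated array of number 3 the median was -0.16 and without the untreated array of number 1 it was -0.073, while without the untreated array of number 3 it was 0.28. These fits had no replicate block, so leaving out 1 array left its number in only 1 group, and the differences between numbers entered the median. With the block, leaving out numbers 1 to 4 in turn gave medians of 0.067, 0.057, 0.033 and 0.043. With the replicate block, the 95% intervals of the 7 genes ran from -0.28 to 0.45, and without it from -0.98 to 1.07.

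**Figure D3:**
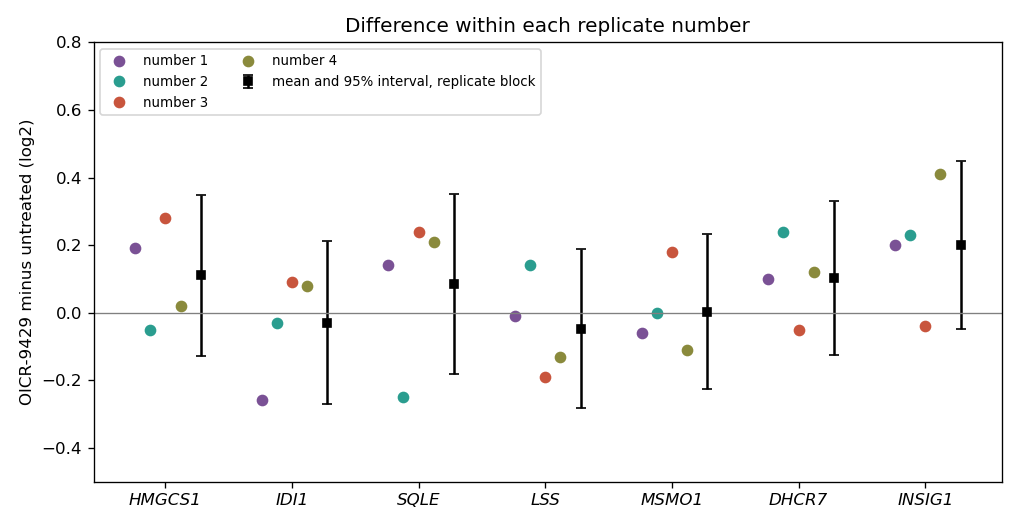
OICR-9429 minus untreated within each replicate number (vertical axis, log2; 1 coloured point per number) and the mean with its 95% interval from the fit with the replicate block (black square and bar). The points of each gene lie between -0.26 and 0.41, and all 7 intervals include 0.

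Other genes of the pathway were taken from 6 lists with 59 genes, of which 48 were measured. In the mevalonate branch, 6 of 6 measured genes passed the test between numbers, as did 50.3% of all probe sets and 76.3% at the level of the sterol genes. ACAT2, a thiolase that joins acetyl-CoA units, measured 9.81, 9.90, 10.24 and 9.12 in untreated and 9.93, 9.92, 10.38 and 9.09 in treated cells, and was higher at number 3 by 0.68 ± 0.11 (SE; limma, adjusted p = 0.0326). MVD and MVK, a decarboxylase and a kinase of the branch, had the same signs as DHCR7 at each number, below 0 at numbers 1 and 2 and above it at 3 and 4. MVD stood at -0.59 for number 2 and 0.63 for number 4, and MVK at -0.60 for number 1 and 0.58 for number 4. GGPS1, which diverts the branch to protein prenylation, was lower at number 4 by a log2 difference of -0.52 and stood at 0.063 for number 3.

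After squalene, 5 of 8 genes passed the test between numbers and 2 passed as higher at number 3 (50.3% and 1.18% of all probe sets). SC5D, a sterol desaturase, measured 6.90, 8.07, 7.88 and 6.38 in untreated and 7.08, 7.98, 8.35 and 6.78 in treated cells. It had the widest swing of the list, with 0.92 ± 0.14 (SE) at number 3 and -1.13 ± 0.14 at number 4 (limma, adjusted p = 0.0251 and 0.000349). CYP51A1, the lanosterol demethylase, gave 8.81, 9.34, 9.40 and 8.33 in untreated and 8.85, 9.40, 9.56 and 8.40 in treated cells, with 0.63 ± 0.11 (SE) at number 3 (limma, adjusted p = 0.0395). Its highs and lows fell on the same numbers as those of SQLE and MSMO1. ERG28, an endoplasmic reticulum protein that tethers sterol enzymes, stood at 0.12 for number 3. Of the 14 cholesterol synthesis genes on these 2 lists, 13 lay above 0 at number 3. So did 10199 of all 21448 probe sets and 2092 of the 3092 at the level of the 7 sterol genes. Of the 14, 3 passed as higher and 6 had number 3 as their highest, where 1.18% and 11.1% of all probe sets did. Their median was 0.31, against 0.72 for the 7 genes, 0.11 for probe sets at that level and -0.013 for all probe sets.

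The genes that sense sterol and process SREBP gave 0 calls at number 3. Of 9 measured, 9 passed the test between numbers, as did 50.3% of all probe sets. At number 3, 0 passed and 1 was highest, where 1.18% of all probe sets passed as higher and 11.1% were highest. These counts therefore say little about the genes. SREBF2, which encodes SREBP2 itself, measured 9.48, 9.55, 9.32 and 9.02 in untreated and 9.45, 9.95, 9.27 and 9.10 in treated cells, and stood at -0.13 ± 0.13 (SE) for number 3. INSIG2, the second retention protein, was lower at number 1 by a log2 difference of -1.40 and higher at number 2 by 1.37 (limma, adjusted p = 0.00105 and 0.00111), and stood at -0.15 for number 3. Its low at number 1 was shared with INSIG1. RNF139, a ubiquitin ligase of the endoplasmic reticulum, stood at 0.26 for number 3 and UBXN8, a membrane anchor of the p97 ATPase, at 0.25.

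Sterol handling and fatty acid genes gave 0 calls at number 3, where 1.18% of all probe sets passed as higher, so this count says little. The median there was 0.31 for uptake, transport and esterification (7 of 9 genes above 0) and 0.34 for fatty acid synthesis (9 of 10). It was 0.0058 for liver X receptor targets and efflux (3 of 6). For uptake, transport and esterification, 6 of 9 genes passed the test between numbers, as did 50.3% of all probe sets. VLDLR, a lipoprotein receptor, stood at -1.38 for number 1 and 1.86 for number 2, SCARB1, a receptor for high-density lipoprotein, at 0.94 and -0.65, and SOAT1, which esterifies cholesterol, at -1.08 for number 4. Of the SREBP1 targets in fatty acid synthesis 9 of 10 passed the test between numbers and 4 had number 3 as their highest (50.3% and 11.1% of all probe sets). ELOVL6, a fatty acid elongase, and ACACA, which makes malonyl-CoA, were lower at number 4 by log2 differences of -2.04 and -1.84, and GPAM, which starts glycerolipid synthesis, by -0.81. Among 6 liver X receptor targets and efflux genes 0 had number 3 as their highest (11.1% of all probe sets). There ABCG1, an exporter of cholesterol, was lower at number 1 by a log2 difference of -1.36 and ABCA1, another exporter, higher at number 2 by 1.25.

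For OICR-9429 the pathway lists gave 0 of 48 genes past the threshold (0% of all probe sets), and 0 with an unadjusted p under 0.05 in limma. Of the 48, 34 lay above 0, 13 below and 1 at 0, with a median of 0.066. Above 0 were also 10951 of all 21448 probe sets (median 0.005) and 1943 of the 3092 at the level of the sterol genes (median 0.028). ABCA1 measured 4.90, 6.24, 5.03 and 4.86 in untreated and 5.15, 6.41, 5.44 and 5.09 in treated cells. It differed by 0.27 ± 0.38 (SE) without the replicate block. With the block its SE was 0.097 and its unadjusted p 0.0257 (limma, adjusted p = 0.841). It was the only one of the 48 with an unadjusted p under 0.05 in that fit (5.55% of all probe sets). Without the block, OSBP, an oxysterol-binding transfer protein, differed by 0.20 ± 0.18 (SE) and ME1, the malic enzyme, by 0.19 ± 0.17. NR1H3, which encodes liver X receptor alpha, differed by -0.22 ± 0.21 in the same fit.

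**Figure D4:**
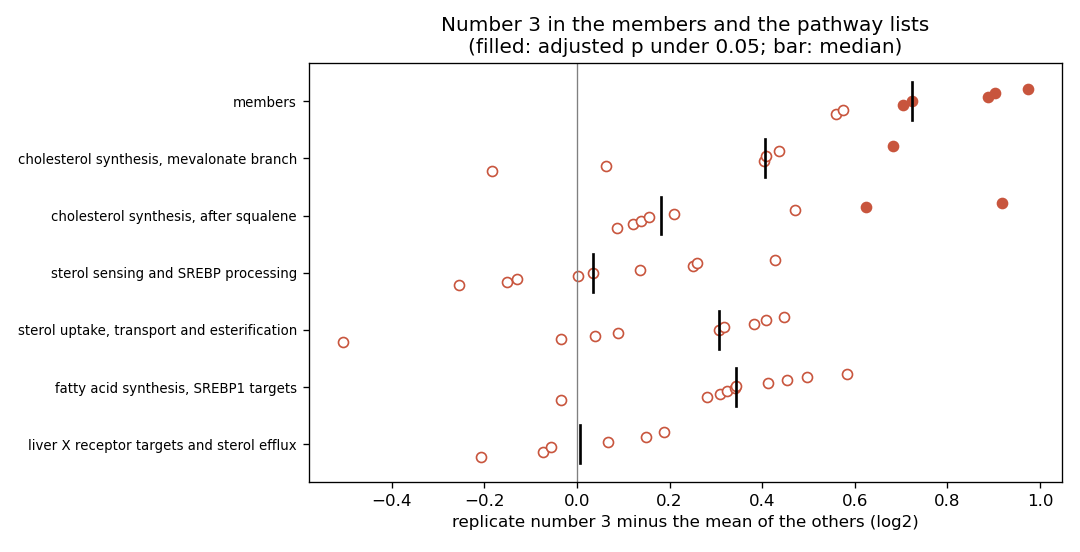
Replicate number 3 minus the mean of the other numbers (horizontal axis, log2), 1 point per measured gene, for the sterol genes (top row, labelled members) and the 6 pathway lists; points are filled at adjusted p under 0.05 in limma and bars are list medians. The 7 genes of the top row lie between 0.56 and 0.97, and filled points outside it are ACAT2, CYP51A1 and SC5D.

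Genes outside the pathway lists were ranked by how closely their 8 values followed the mean of the 7 sterol genes, after centring each gene. Among 14262 genes with an SD of at least 0.2, the closest were RGCC (Pearson r = 0.986), LMBR1 (0.985), STS (0.972), FRMD6 (0.972) and FRMD4B (0.968), and 38 (0.266%) had r over 0.9. The values are a measure of likeness over 8 arrays that share 4 numbers, and carry no test. STS, which encodes steroid sulfatase, an enzyme that also acts on cholesterol sulfate, measured 9.96, 10.45, 11.04 and 9.83 in untreated and 9.99, 10.54, 10.93 and 10.03 in treated cells. Number 3 was highest in both groups, and numbers 1 and 4 were low and overlapped. RGCC and LMBR1 were also highest at number 3, over narrower ranges, from 6.60 to 7.32 and from 9.53 to 10.03. In both, number 1 was the lowest and did not overlap number 4.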

How the data were processed

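RNA of CCRF-CEM cells was biotin-labelled (GeneChip WT PLUS reagents) per the labels' protocols. The authors deposited log2 values per probe set for 8 arrays, made with RMA (background correction, normalization between arrays, summary of probes) and Transcriptome Analysis Console per the submitters' processing notes. Scanner files were not used here. Tool versions or a build were not given in the sources used here. RMA can compress small differences at low signal.

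The platform annotation gave 1 symbol to 17709 probe sets and none to 3739, and symbols were updated by Entrez ID. Of genes with several probe sets the brightest was used. limma 3.58.1 in R 4.3.3 (lmFit, eBayes, two-sided, Benjamini-Hochberg over all probe sets, threshold 0.05) compared OICR-9429 with untreated without covariate, and numbers in a model with number and treatment. The error term of the latter is the variation of the treatment difference between numbers, which does not measure the spread of separate cultures. Fits were tested on simulated data with large planted differences. The data simulated for the treatment fits held no differences between numbers, so they do not show how the fit without block behaves with them. Sample titles give the numbers. Deviations from group means correlated within numbers 1 to 4 at 0.696, 0.748, 0.566 and 0.865, so the numbers pair the arrays, and a fit with the replicate block was run beside the main one.

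Named genes were the members, the 2 genes per pathway list with the smallest unadjusted p in each of both tests, and the 5 genes most like the members. Marker genes, which check cell type, were named after their values were seen. The members and lists were chosen with earlier results of these data known. Alternatives were other normalizations, a level filter, another variance model, no treatment term and leaving out arrays or numbers. Sequences are from RefSeq tables of GRCh38.p14.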

Additional observations from a re-analysis of the deposited data

How the results depend on the processing

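With OICR-9429, 0 probe sets and 0 of the 7 genes passed under each of the 18 alternatives run (smallest adjusted p of a gene 0.709, limma), and 25 of 126 gene values had another sign. The replicate block changed no call (0 probe sets, 0 genes). The count at unadjusted p under 0.05 was 105, 1191 with the replicate block, 942 to 1482 with that block and 1 number left out, 1166 with that block and trended, robust variance (chosen after seeing the data), 165 with that variance alone, 5 with the level filter, and 82 to 271 with 1 array left out. The mean over probe sets was not run, since each gene had 1.

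Between numbers, 10791 probe sets and 7 genes passed, and with 1 number left out 2979 (without number 4) to 10394 probe sets and 6 to 7 genes. Of 224 gene values at a number over the 9 alternatives, 169 kept direction and side of the threshold, 19 lost and 28 gained the call, and 8 values that did not pass changed sign. At number 3, 254 probe sets were higher, 431 without a treatment term, 1321 with the level filter, 1694 with trended, robust variance and 146 to 2054 with 1 number left out, where 3 to 7 genes passed in place of 5. At number 1, 2 to 5 genes were lower with 1 number left out. At number 2, 1 gene was lower, 2 with each normalization, without a treatment term, with the level filter and with trended, robust variance, and 1 to 2 with a number left out. There, 2 genes were higher, 4 with trended, robust variance and 0 to 5 with a number left out. At number 4, 1 gene was higher, 2 with each normalization and 0 to 1 with a number left out, and 3 to 4 were lower. The cause of these changes was not tested, beyond the fewer probe sets tested with the level filter and the fewer arrays when a number is left out. In 35 groups of 4 values (genes, their differences and list means), 0 held 1 value far from the rest, where chance gives about 1 in 20. Signal over background is not known, so small changes of dim probe sets may go unseen.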
